A study of Rattus norvegicus with 25 samples.

Results

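Trapidil at 7.5 mg/kg, given with levodopa, was compared with levodopa alone in the striatum of rats with a 6-hydroxydopamine lesion. The comparison used 15 of the 25 libraries of the study, taken by their labels and not by any measured value, and is described across all genes. The comparison itself was chosen with earlier results of these data known. The reference arm held 5 rats dosed with levodopa at 6 mg/kg QD. The other arm held 10 rats that received the same levodopa and trapidil at 7.5 mg/kg BID. The remaining 10 rats, on levodopa with trapidil at 15 mg/kg BID, entered the model fit and so share in the spread behind its SE and p-values. Their own values are given only where the doses or the spreads of the arms are set against each other. All were female Sprague Dawley rats, randomised after the lesion and dosed for 14 days, and the title of the study names benserazide, an inhibitor of levodopa breakdown outside the brain, with levodopa. Striatum on the lesioned side was taken on day 15, at a time the labels give as 1 hour relative to dosing, with the order left unstated. Every rat carried the lesion and received levodopa, so the data hold no unlesioned, undosed or trapidil-only animal and no intact striatum.

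The toxin 6-hydroxydopamine destroys dopamine neurons and is used to model Parkinson's disease. Levodopa is the precursor of dopamine. In the lesioned striatum it acts through sensitised D1 receptors of direct pathway spiny neurons, which switch on cyclic AMP and ERK kinase signalling. Immediate early genes such as Fos, Egr1 and Arc are transcribed within minutes of that signalling, and dual-specificity phosphatases such as Dusp1 and Dusp6 switch the kinases off again. Trapidil was developed as a vasodilator and antiplatelet drug. It blocks signalling by platelet-derived growth factor (PDGF) and inhibits phosphodiesterases, the enzymes that break down cyclic nucleotides.

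Library totals ran from 16535828 to 19274429 gene counts with levodopa and from 10838513 to 18794463 at 7.5 mg/kg, a difference in means with p = 0.0846 by a two-sided exact permutation test over animals (0.169 adjusted over 2 tests). Mitochondrially encoded genes took between 7.62% and 17.3% of the counts with levodopa and between 8.43% and 14.9% at 7.5 mg/kg. In 2 libraries the values stood apart. Levodopa animal 2 had the highest mitochondrial share, the lowest level of spiny neuron genes and the highest level of vascular and glial genes. Animal 1 of the 7.5 mg/kg arm had the lowest total and resembled the levodopa animals in its immediate early genes. Both are followed through the results. The tissue label was checked against genes of the striatal spiny neuron: 18 of 18 identity genes, 8 of 8 direct pathway genes and 7 of 7 indirect pathway genes passed the filter on low counts. Levels are given as CPM, read counts normalised to library size with TMM (trimmed mean of M-values) factors, and Drd2 ran from 299 to 559 CPM over the 15 animals.

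Trapidil at 7.5 mg/kg was accompanied by lower levels of 4 genes. Ppp1r15a, which encodes the stress-inducible subunit that directs a phosphatase to translation factor eIF2 alpha, fell and was under the levodopa mean in 10 of 10 animals. Dusp2 and Dusp6, phosphatases that inactivate ERK, fell as well. Btg2, an immediate early gene whose product restrains proliferation and promotes messenger RNA decay, also fell. These 4 were 0.0283% of the 14142 genes tested (edgeR quasi-likelihood test, two-sided, Benjamini-Hochberg adjusted p under 0.05), and 0 genes passed in the higher direction. At an unadjusted p under 0.05 there were 939 lower genes (6.64%) and 710 higher genes (5.02%), and the median log2 fold change of all genes was 0.00. These values come from the fit over all 3 arms. With only the 2 compared arms in the fit, Ppp1r15a alone passed (edgeR adjusted p = 0.0462), and Dusp2, Btg2 and Dusp6 did not.

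Ppp1r15a stood at 69.7, 52.7, 87.2, 37.5 and 74.7 CPM in levodopa animals 1 to 5. At 7.5 mg/kg it ran from 27.6 to 41.8 CPM with a median of 31.7. The ranges overlapped through levodopa animal 4, which lay below 2 of the 10 trapidil animals. The log2 fold change was -0.96 ± 0.12 (SE), with edgeR adjusted p = 0.00033.

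Dusp2, a nuclear phosphatase induced by the kinases it inactivates, stood at 11.2, 9.69, 24.5, 4.70 and 26.9 CPM with levodopa. At 7.5 mg/kg it ran from 2.94 to 10.1 CPM (median 4.37), a log2 fold change of -1.65 ± 0.27 (SE; edgeR adjusted p = 0.0130). Levodopa animals 3 and 5 held the high values, and levodopa animals 2 and 4 lay inside the trapidil range. Dusp6, the cytoplasmic phosphatase specific for ERK, stood at 40.9, 29.3, 37.3, 19.7 and 26.8 CPM with levodopa and ran from 10.1 to 28.2 CPM (median 16.3) at 7.5 mg/kg. This gave a log2 fold change of -0.91 ± 0.17 (SE) and edgeR adjusted p = 0.0428. The highest trapidil value was that of animal 1, above 2 levodopa animals, and the next highest was 19.5 CPM.

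Btg2 stood at 31.3, 27.5, 43.7, 13.5 and 27.4 CPM with levodopa. At 7.5 mg/kg 9 of the 10 animals ran from 7.08 to 12.03 CPM, under each levodopa animal, and animal 1 stood at 31.7 CPM. Over all animals the log2 fold change came to -1.33 ± 0.25 (SE; edgeR adjusted p = 0.0428). In CPM, the SD was larger with levodopa than with trapidil for Ppp1r15a, Dusp2, Btg2 and Dusp6 (19.5, 9.73, 10.8 and 8.45 CPM against 4.80, 2.13, 7.24 and 5.04 CPM). The means were higher with levodopa as well (64.4, 15.4, 28.7 and 30.8 CPM against 33.1, 4.97, 11.6 and 16.5 CPM). These SDs therefore do not compare the spread relative to the level. The fit pools the spread over arms, and limma-voom with 1 variance weight per arm called Ppp1r15a and Btg2 only.

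**Figure D1:**
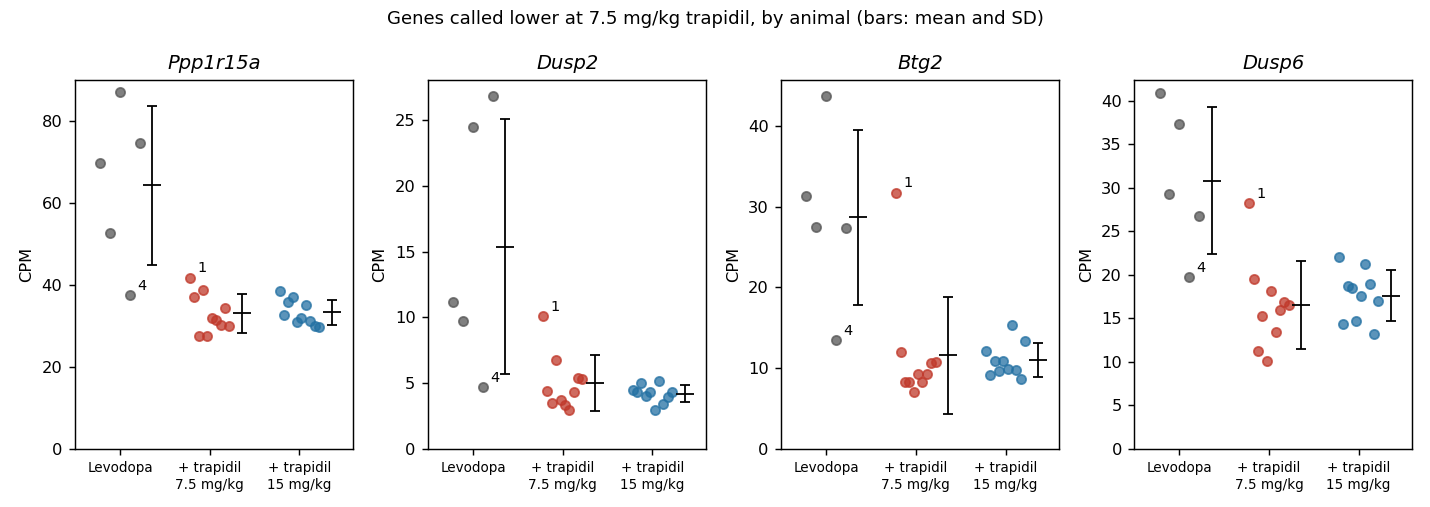
CPM (vertical axis, from 0) of Ppp1r15a, Dusp2, Btg2 and Dusp6 in each animal, by arm (levodopa alone or with either trapidil dose), with bars at the mean and 1 SD. Levodopa animal 4 and 7.5 mg/kg animal 1, marked by their numbers, lie within the range of the opposite arm or at its edge, and both trapidil arms lie at similar levels.

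The promoters of the called genes are shown because the 4 fell together and because the kinase and cyclic AMP pathways named above act through short promoter elements. All 4 genes had a window in the RefSeq promoter table (build GRCr8, 250 bases before to 50 after the start). The 250 bases before the start and the first 10 from it are printed for chr1:105139587-105139846 (minus strand) for Ppp1r15a, chr13:48087681-48087940 (minus strand) for Btg2, chr3:135009386-135009645 (plus strand) for Dusp2 and chr7:35979354-35979613 (plus strand) for Dusp6, 5′ to 3′ on the gene's strand. Capitals mark matches on either strand to the full cyclic AMP response element (TGACGTCA), its shorter core (TGACG, or CGTCA on the other strand) and the AP-1 element (TGANTCA).
Ppp1r15a: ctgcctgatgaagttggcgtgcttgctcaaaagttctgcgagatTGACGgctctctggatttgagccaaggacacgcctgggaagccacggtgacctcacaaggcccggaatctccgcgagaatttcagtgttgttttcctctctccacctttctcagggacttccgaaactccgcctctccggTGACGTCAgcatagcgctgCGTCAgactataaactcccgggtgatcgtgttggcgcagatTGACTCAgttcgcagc
Btg2: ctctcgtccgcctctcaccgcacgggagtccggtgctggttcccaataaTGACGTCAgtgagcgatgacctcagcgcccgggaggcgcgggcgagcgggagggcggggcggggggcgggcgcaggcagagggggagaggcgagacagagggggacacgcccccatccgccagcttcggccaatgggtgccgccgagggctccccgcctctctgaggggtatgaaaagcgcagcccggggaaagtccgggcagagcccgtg
Dusp2: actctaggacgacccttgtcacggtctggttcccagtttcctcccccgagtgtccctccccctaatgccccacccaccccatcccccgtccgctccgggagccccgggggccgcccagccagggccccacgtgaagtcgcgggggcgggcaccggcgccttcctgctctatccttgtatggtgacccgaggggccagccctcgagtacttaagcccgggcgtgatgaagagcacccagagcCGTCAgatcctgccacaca
Dusp6: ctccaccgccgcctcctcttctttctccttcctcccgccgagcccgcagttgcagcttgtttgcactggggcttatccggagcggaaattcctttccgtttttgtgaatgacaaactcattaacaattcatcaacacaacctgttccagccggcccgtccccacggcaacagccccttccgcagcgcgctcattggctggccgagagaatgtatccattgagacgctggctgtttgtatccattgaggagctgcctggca

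Ppp1r15a and Btg2 each held 1 full cyclic AMP response element, which starts 66 bases before the start in Ppp1r15a and 201 bases before it in Btg2. Such an element was present in 1.83% of 33469 RefSeq promoter windows of the same length. Ppp1r15a also held an AP-1 element that reaches the start itself (present in 7.33% of windows) and 4 short cores, 2 of them within the full element. Dusp2 held 1 short core (present in 21.2% of windows) 9 bases before the start. Dusp6 held none of the 3 elements in its window. The GC box (GGGCGG) matched 3 times in Btg2 and 2 times in Dusp2 and was present in 33.1% of windows, while the CArG box of serum response factor matched in none of the 4 and was present in 1.64%. These are matches of letters and show no binding.

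Directly outside the threshold lay Egr2, Dusp5, Rrbp1 and Pdgfb. Egr2, a zinc finger transcription factor of the immediate early class, stood at 118, 64.0, 180, 36.8 and 133 CPM with levodopa and ran from 10.4 to 86.6 CPM (median 30.9) at 7.5 mg/kg. Its log2 fold change of -1.77 ± 0.34 (SE) was the most negative among the immediate early genes, with edgeR adjusted p = 0.0544. Animal 1 held the trapidil maximum, with the next highest at 38.7 CPM. Dusp5, a nuclear phosphatase specific for ERK, ran from 8.07 to 24.5 CPM (median 20.4) with levodopa and from 4.15 to 12.7 CPM (median 7.46) at 7.5 mg/kg (-1.20 ± 0.24; adjusted p = 0.0551).

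Rrbp1, a ribosome-binding protein of the endoplasmic reticulum, stood at 74.4, 134, 83.2, 73.1 and 75.7 CPM with levodopa and ran from 56.1 to 68.9 CPM (median 62.1) at 7.5 mg/kg. This gave -0.49 ± 0.10 on the log2 scale (SE), with edgeR adjusted p = 0.0549. Pdgfb, which encodes the PDGF B chain, stood at 20.1, 32.0, 22.1, 20.002 and 22.8 CPM with levodopa and ran from 13.3 to 19.9 CPM (median 16.3) at 7.5 mg/kg (-0.51 ± 0.10; adjusted p = 0.0674). For both genes the arms did not overlap and levodopa animal 2 was far above the other levodopa animals. Leaving out that animal gave -0.28 for Rrbp1 and -0.37 for Pdgfb.

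Of the 42 immediate early genes tested from a list of 43, 1 fell (Btg2), against 0.0283% of all genes called, and 34 had negative log2 fold changes, with a median of -0.48 against 0.00 over all genes. At an unadjusted p under 0.05, 21 of the 42 were lower, against 6.64% of all genes, and 0 were higher. This list, like the other lists, was chosen with earlier results of these data known. Its members were measured in the same animals, so such counts are not counts of separate results. The AP-1 subunits were uneven. Fos ran from 16.2 to 83.0 CPM (median 38.5) with levodopa and from 4.10 to 63.2 CPM (median 12.3) at 7.5 mg/kg, for -1.43 ± 0.41 on the log2 scale (SE; edgeR adjusted p = 0.2). Jun (-1.05 ± 0.23; adjusted p = 0.0924) and Junb (-1.0005 ± 0.23; adjusted p = 0.134) had values of about the same size, while Fosb was at -0.24 ± 0.21 (adjusted p = 0.657). Without levodopa animal 1 or 3 Fosb was at -0.025 or -0.14.

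Among the activity genes of neurons, Arc, which regulates AMPA receptor trafficking at synapses, ran from 171 to 710 CPM (median 521) with levodopa. At 7.5 mg/kg it ran from 56.4 to 239 CPM in 9 animals, a range that held levodopa animal 4, and stood at 597 CPM in animal 1. The difference was -1.34 ± 0.33 on the log2 scale (SE; edgeR adjusted p = 0.135). Egr1 (-0.66 ± 0.17; adjusted p = 0.136) and the nuclear receptor Nr4a1 (-0.83 ± 0.20; adjusted p = 0.135) did not pass either. Npas4, a neuron-specific factor induced by calcium entry, was at 0.13 ± 0.35 (adjusted p = 0.909), with ranges of 7.60 to 31.0 CPM with levodopa and 6.38 to 29.3 CPM with trapidil.

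Other members were named after their values were seen. Trib1, a pseudokinase (-1.32), Csrnp1 (-0.60), Ier5 (-0.65), Gadd45g (-0.79), Egr4 (-0.78), Klf10 (-0.55) and Sik1 (-0.40) did not pass and had an unadjusted p under 0.05. The 8 members with positive values included Inhba (0.41), the activin subunit, Homer1 (0.28), the postsynaptic scaffold, and Nr4a3 (0.22), and had no unadjusted p under 0.05.

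The mean log2 difference of the list from the levodopa mean was 0.23, -0.12, 0.34, -0.48 and 0.04 in levodopa animals 1 to 5. At 7.5 mg/kg it was 0.20 in animal 1 and between -0.77 and -0.29 in the other 9. Animal 1 of the trapidil arm thus lay among the levodopa animals, and levodopa animal 4 among the trapidil animals. The median SD of log2 CPM of these genes was 0.47 with levodopa, 0.31 at 7.5 mg/kg and 0.23 at 15 mg/kg, against 0.18, 0.16 and 0.13 over all genes.

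**Figure D2:**
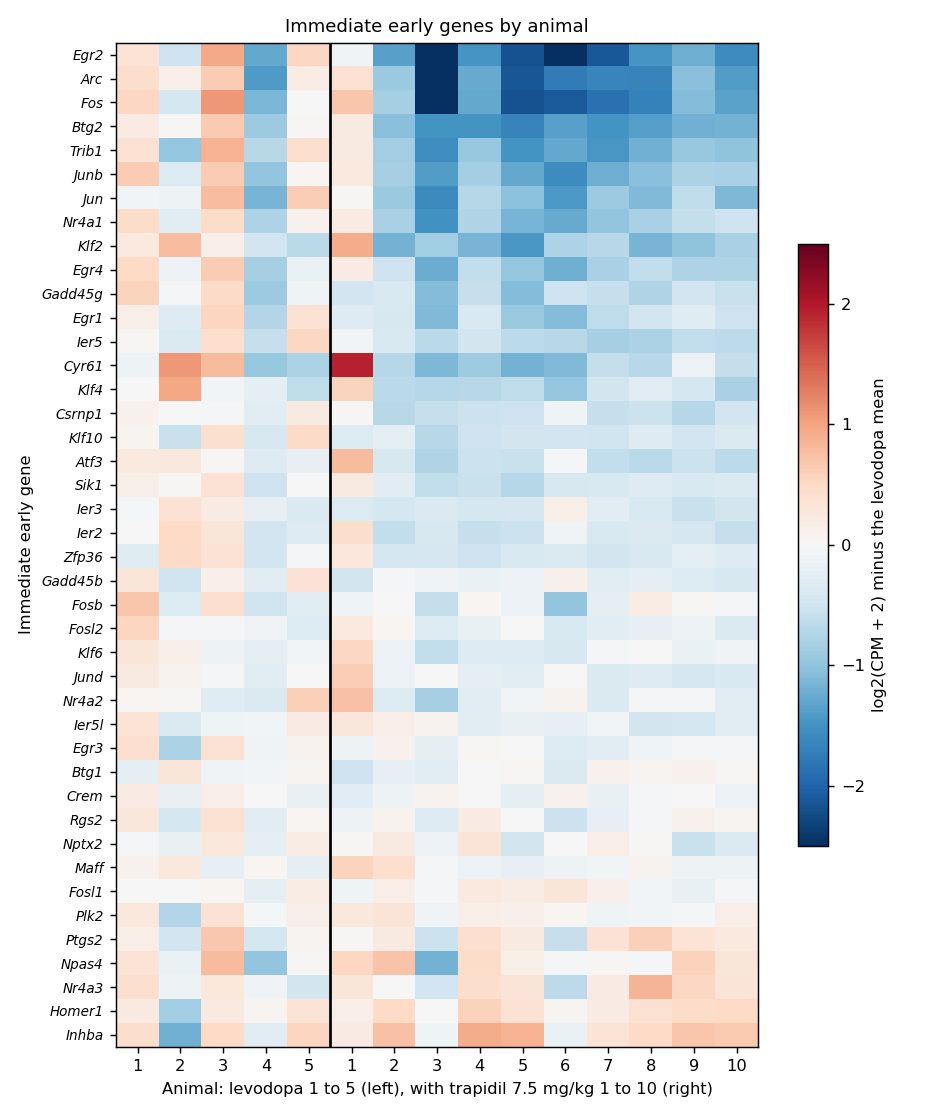
Colour gives log2(CPM + 2) minus the levodopa mean for each immediate early gene (vertical axis, ordered by the mean at 7.5 mg/kg) in each animal (horizontal axis; the line parts levodopa from trapidil), with values past the scale in its end colour. Trapidil animals 2 to 10 are blue down the upper rows, trapidil animal 1 is pale to red there, and levodopa animal 4 is blue.

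Among MAP kinase phosphatases and other feedback regulators of ERK, the members that fell or came nearest to it were phosphatases. Of 21 members tested, 2 fell, Dusp2 and Dusp6, against 0.0283% of all genes called, and the median was 0.00 with 10 negative. Dusp1, the phosphatase that also acts on the stress kinases p38 and JNK, ran from 42.9 to 153 CPM (median 102) with levodopa and from 19.6 to 112 CPM (median 32.8) at 7.5 mg/kg (-1.29 ± 0.29, SE; edgeR adjusted p = 0.109). Animal 1 held that maximum, and the other 9 trapidil animals reached at most 43.6 CPM. Outside the phosphatases, named after their values were seen, Spry2 (-0.22), Spred2 (0.24) and Spred3 (0.26), inhibitors of the Ras pathway, had an unadjusted p under 0.05 in opposite directions. The ERK-driven factors Etv1 (0.00), Etv4 (0.20) and Etv5 (0.14) and the phosphatase Dusp4 (-0.08) had values near or above 0.

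The integrated stress response is the pathway in which kinases phosphorylate eIF2 alpha, translation slows and the factor Atf4 is made. Ppp1r15a is its feedback phosphatase subunit, and it was the 1 member of 28 tested that fell, against 0.0283% of all genes called. The list median was -0.07, with 19 negative, 3 lower and 2 higher at an unadjusted p under 0.05. Ppp1r15b, the constitutive counterpart of Ppp1r15a, ran from 63.7 to 90.4 CPM (median 72.7) with levodopa and from 57.3 to 68.2 CPM (median 60.2) at 7.5 mg/kg (-0.26 ± 0.06, SE; edgeR adjusted p = 0.134). Atf4 (-0.13 ± 0.07; adjusted p = 0.47) and its target Ddit3 (-0.18 ± 0.11; adjusted p = 0.533) did not pass. The list median was -0.01 and Atf4 was at -0.042 without levodopa animal 2.

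Xbp1, also on that list and the transcription factor that IRE1 splices, reached at most 28.3 CPM (median 26.5) with levodopa and ran from 27.0 to 35.8 CPM (median 31.3) at 7.5 mg/kg, for 0.29 ± 0.07 on the log2 scale (SE; edgeR adjusted p = 0.135). The chaperone Hspa5, named after its value was seen, was at 0.23 ± 0.11 (adjusted p = 0.407). Of 16 heat shock chaperones tested, 0 passed and 13 were positive, with a median of 0.09. Hsf1, the heat shock transcription factor, was at 0.17 ± 0.08 (adjusted p = 0.404), and the cochaperone Bag3 was at -0.34 ± 0.15 (adjusted p = 0.391). The chaperone median was 0.04 and Bag3 was at -0.10 without levodopa animal 2.

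**Figure D3:**
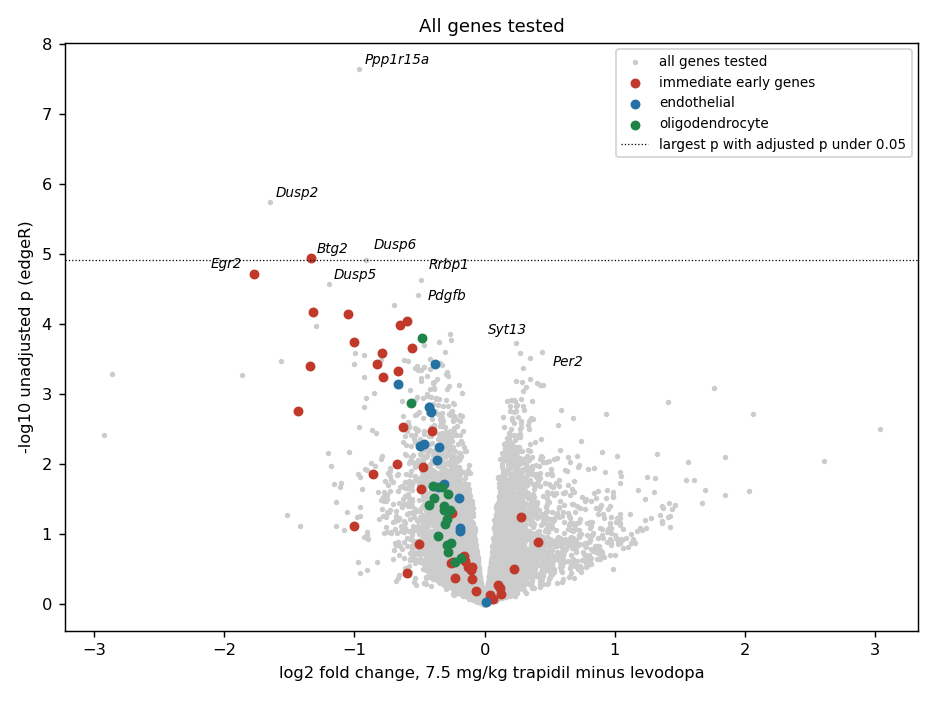
Each point is 1 of 14142 genes, by log2 fold change at 7.5 mg/kg against levodopa (horizontal axis) and the negative log10 of the unadjusted edgeR p (vertical axis), with immediate early, endothelial and oligodendrocyte genes in colour. Ppp1r15a, Dusp2, Btg2 and Dusp6 are the points on or above the dotted line, all at negative fold changes, and most coloured points lie left of 0.

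No gene passed in the higher direction, and the 8 genes with the smallest p had log2 fold changes between 0.24 and 0.44. Syt13, a synaptotagmin, stood at 148, 143, 149, 147 and 137 CPM with levodopa and ran from 155 to 199 CPM (median 168) at 7.5 mg/kg, with no overlap. This gave 0.24 ± 0.06 on the log2 scale (SE), with edgeR adjusted p = 0.134. Per2, a repressor of the circadian clock, ran from 37.1 to 45.3 CPM (median 38.8) with levodopa and from 41.1 to 69.5 CPM (median 57.1) at 7.5 mg/kg (0.44 ± 0.10; adjusted p = 0.135). Banp (0.27), Atp6ap1l (0.35), Xbp1 (0.29), Mzf1 (0.35), the microtubule minus-end protein Camsap3 (0.25) and Rabl2 (0.29) made up the rest of the 8 highest-ranked genes, with adjusted p between 0.135 and 0.148.

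Of the 19 clock genes tested, 0 passed, the median was 0.02 (-0.02 without levodopa animal 2) and 3 were higher and 1 lower at an unadjusted p under 0.05. Besides Per2, the higher ones were Cry1 (0.28) and Per3 (0.21), named after their values were seen, which encode further repressors of the clock. Bhlhe40, also a clock repressor and induced by activity, was at -0.37 ± 0.10 (SE; edgeR adjusted p = 0.179). Per1 ran from 90.3 to 141 CPM (median 119) with levodopa and from 107 to 139 CPM (median 116) at 7.5 mg/kg, with 0.00 ± 0.09 on the log2 scale.

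In 13 genes the 2 arms did not overlap, and none of the 4 called genes was among them. This is a description without a test, and among all genes tested some would part by chance. The 9 lower genes (0.0636% of those tested) included Rrbp1, Pdgfb and Crebbp, the histone acetyltransferase that binds CREB, which ran from 73.8 to 77.8 CPM with levodopa and from 57.2 to 71.9 CPM at 7.5 mg/kg (-0.19 ± 0.06, SE; edgeR adjusted p = 0.212). Among the others, named after their values were seen, were the sheddase Adam17 (-0.27), the glycogen primer Gyg1 (-0.33), Ggnbp1 (-1.005), the cytokine receptor chain Il2rg (-0.91) and AABR07068127.1 (-0.49). Il2rg and Ggnbp1 lay under 1 CPM in every animal at 7.5 mg/kg, where few reads stand behind a value. Adam17 ran from 29.4 to 39.1 CPM with levodopa and from 24.7 to 29.0 CPM at 7.5 mg/kg (adjusted p = 0.131). The 4 higher genes (0.0283%) were Syt13, Camsap3, Rabl2 and AABR07057423.1 (0.26), the last named after its value was seen.

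The known actions of trapidil led to 4 further lists. Of 10 genes for PDGF ligands and receptors, 0 passed, 9 were negative and the median was -0.12. The receptor genes Pdgfra, of oligodendrocyte precursors, and Pdgfrb, of pericytes, were at -0.13 ± 0.11 and -0.23 ± 0.11 (SE; edgeR adjusted p = 0.632 and 0.404). Without levodopa animal 2 the list median became 0.04 with 4 negative, Pdgfra was at 0.056 and Pdgfrb at -0.073. Of 18 cyclic nucleotide phosphodiesterases, 0 passed, 15 were positive and the median was 0.14, with 3 higher at an unadjusted p under 0.05. The median was 0.07 with 8 negative without levodopa animal 2. Pde10a, the main phosphodiesterase of spiny neurons, stood at 229 CPM in levodopa animal 2, ran from 685 to 815 CPM in the remaining levodopa animals and from 569 to 838 CPM at 7.5 mg/kg (0.07 ± 0.17).

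Of 16 genes for protein kinase A and CREB factors, 0 passed, 11 were positive and the median was 0.12 (0.09 without levodopa animal 2). The regulatory subunit Prkar1b ran from 61.4 to 98.8 CPM with levodopa and from 92.4 to 125 CPM at 7.5 mg/kg (0.30 ± 0.08, SE; edgeR adjusted p = 0.185). Creb1, named after its value was seen, was at 0.34 ± 0.14 (adjusted p = 0.355), opposite in sign to its coactivator Crebbp. Of 12 prostanoid and thromboxane genes, 0 passed and the median was 0.03. The prostaglandin D synthase Ptgds (-0.41 ± 0.17; adjusted p = 0.365) and the cyclooxygenase Ptgs1 (-0.27 ± 0.12; adjusted p = 0.407) had the smallest p-values among members with a mean of at least 1 CPM. They were at -0.26 and -0.097 without levodopa animal 2.

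**Figure D4:**
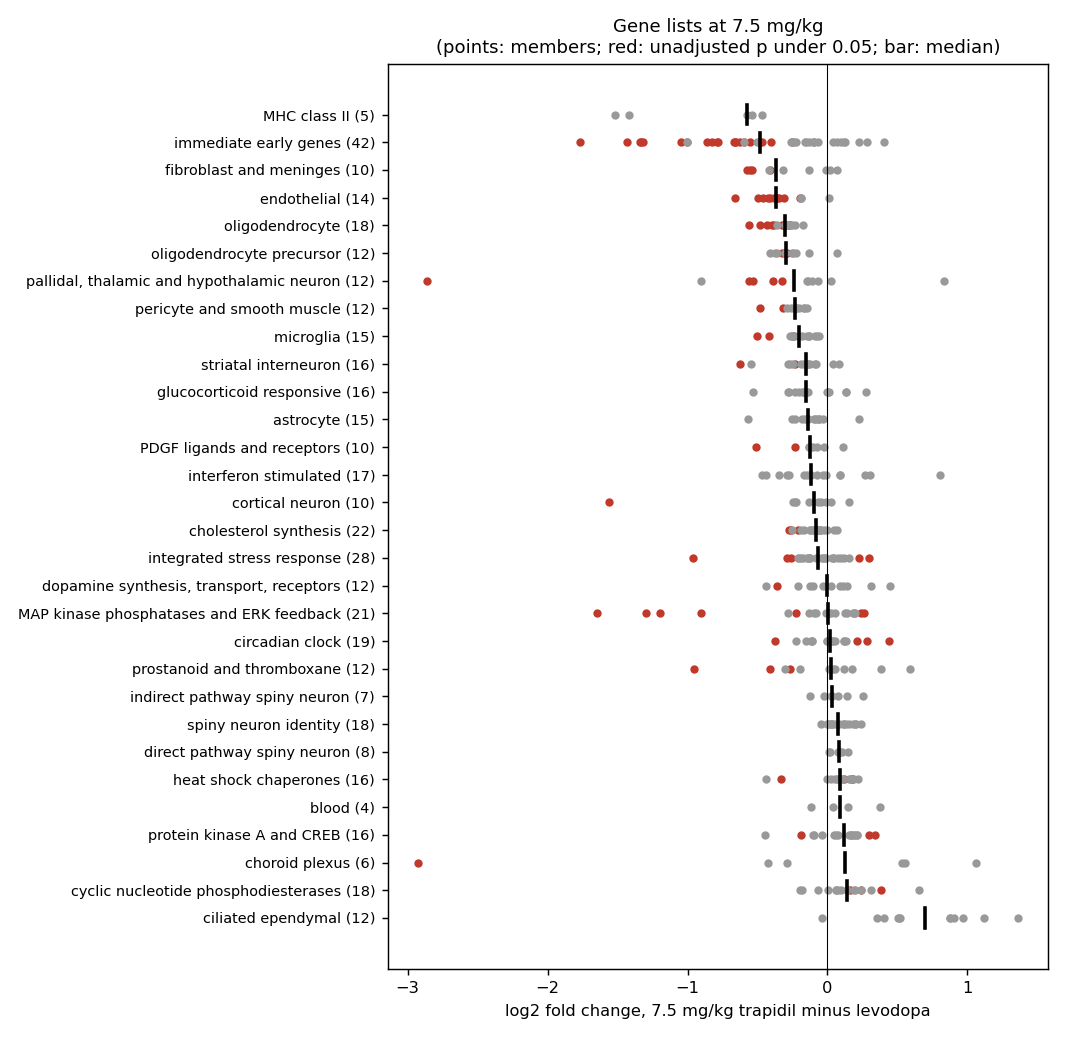
Points give the log2 fold change at 7.5 mg/kg against levodopa (horizontal axis) of the tested members of 30 gene lists (vertical axis, number tested in brackets), red at an unadjusted p under 0.05, with a bar at the median. The immediate early, endothelial and oligodendrocyte lists have medians of -0.48, -0.36 and -0.31, spiny neuron lists lie between 0.03 and 0.08, and the ependymal list is at 0.70.

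Genes of the spiny neurons, the projection neurons that respond to levodopa, were near 0. The direct pathway list had 0 of 8 members passing and a median of 0.08, and the indirect pathway list 0 of 7 and 0.03, which were -0.03 and -0.06 without levodopa animal 2. The dopamine receptor genes Drd1 and Drd2 were at 0.09 ± 0.13 and 0.14 ± 0.09 (SE; edgeR adjusted p = 0.813 and 0.569), and at -0.076 and 0.023 without that animal. The opioid peptide gene Pdyn, a direct pathway gene that levodopa raises, ran from 199 to 509 CPM with levodopa and from 156 to 516 CPM at 7.5 mg/kg (0.01 ± 0.21). Penk, its indirect pathway counterpart, was at 0.03 ± 0.14 and Tac1 at 0.02 ± 0.11. The 18 spiny neuron identity genes had a median of 0.08 with 2 negative, and without levodopa animal 2 the median was -0.02 with 10 negative.

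Of the 12 dopamine genes tested, 0 passed and the median was 0.00. The dopamine transporter gene Slc6a3 was too low to be tested, as was Drd4. Ddc, which converts levodopa to dopamine, ran from 8.95 to 15.1 CPM with levodopa and from 6.72 to 10.5 CPM at 7.5 mg/kg (-0.36 ± 0.12, SE; edgeR adjusted p = 0.282). Of 16 interneuron genes, 0 passed, 14 were negative and the median was -0.16 (-0.13 without levodopa animal 2). Zic4 (-0.63 ± 0.20; adjusted p = 0.272) and the vesicular acetylcholine transporter Slc18a3 (-0.23 ± 0.08; adjusted p = 0.287) had the smallest p-values. Zic4 was at -0.36 and Ddc at -0.22 without levodopa animal 2. In bulk tissue fewer cells of a type and less RNA per cell cannot be told apart, here and for the cell types that follow.

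Vascular and myelin genes were mostly negative, with 0 members of the endothelial, pericyte and oligodendrocyte lists passing, and levodopa animal 2 had the highest summed level of each of these lists. Of 14 endothelial genes, 13 were negative, 11 of them lower at an unadjusted p under 0.05 (6.64% of all genes), and the median was -0.36. Kdr, a receptor of vascular endothelial growth factor, stood at 12.5, 25.8, 10.9, 15.99 and 12.9 CPM with levodopa and ran from 6.92 to 13.7 CPM at 7.5 mg/kg (-0.66 ± 0.17, SE; edgeR adjusted p = 0.15). The lactate transporter Slc16a1 ran from 42.3 to 58.6 CPM with levodopa and from 34.2 to 49.2 CPM at 7.5 mg/kg (-0.38 ± 0.09; adjusted p = 0.135). The summed level of the endothelial list ran from 643 to 1144 CPM with levodopa and from 547 to 779 CPM with trapidil. Without levodopa animal 2 the median was -0.18, 3 members were lower at an unadjusted p under 0.05 against 3.18% of all genes in that fit, and Kdr was at -0.41.

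Of 18 oligodendrocyte genes, 18 were negative, 10 at an unadjusted p under 0.05 (6.64% of all genes), with a median of -0.31. Tspan2, a tetraspanin of myelinating cells, ran from 194 to 302 CPM with levodopa and from 138 to 202 CPM at 7.5 mg/kg (-0.48 ± 0.11, SE; edgeR adjusted p = 0.134), and Opalin was at -0.56 ± 0.16 (adjusted p = 0.184). Without levodopa animal 2 the median was -0.22 and 2 members had an unadjusted p under 0.05 (3.18% of all genes lower). The 12 precursor genes had a median of -0.30 with 11 negative, and of -0.11 with 10 negative without that animal. The summed oligodendrocyte level ran from 11443 to 20752 CPM with levodopa and from 7945 to 17390 CPM at 7.5 mg/kg.

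Several other lists moved with levodopa animal 2. The 15 microglial genes had a median of -0.21 (15 negative), which became -0.02 without that animal. The 10 fibroblast and meningeal genes had a median of -0.36 (8 negative), which became -0.02. The 15 astrocyte genes had a median of -0.14, the 12 pericyte and smooth muscle genes of -0.23 and the 22 cholesterol synthesis genes of -0.08, and these became 0.03, -0.07 and -0.01. The part of these cell types in the levels of Rrbp1 and Pdgfb was not tested.

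Markers of neighbouring regions varied between single animals. Slc17a6, the vesicular glutamate transporter of thalamic neurons, stood at 10.98 CPM in levodopa animal 2 and ran from 0.220 to 1.003 CPM in the remaining levodopa animals, against 0 to 1.74 CPM at 7.5 mg/kg. Ttr, a choroid plexus transcript, stood at 23.4 CPM in levodopa animal 2, between 0 and 0.528 CPM in the other levodopa animals and between 0 and 2.02 CPM at 7.5 mg/kg. The 12 tested genes of pallidal, thalamic and hypothalamic neurons had a median of -0.24, with 10 negative and 5 lower at an unadjusted p under 0.05 (6.64% of all genes). Without levodopa animal 2 the median was -0.21, 2 were lower at that p and Slc17a6 was at -0.68. The 6 choroid plexus genes had a median of 0.12, and of 0.56 without that animal. The choroid gene Otx2 and the hypothalamic gene Pmch were at 0 in 15 of 15 animals, and Sim1 in 14. The median of the 12 ciliated ependymal genes was 0.70, 11 lay above 0 and 0 reached an unadjusted p under 0.05. Their summed level ran from 29.8 to 126 CPM with levodopa and from 26.6 to 165 CPM at 7.5 mg/kg. Levodopa animal 4 held the levodopa maximum. Without it the median was 1.78, with 10 members higher at an unadjusted p under 0.05, against 7.72% of all genes in that fit. Leaving out the levodopa maximum raises the difference by construction, so that fit adds no support for a rise. Over all fits that left out 1 animal, the member Cfap126 ran from 0.86 to 2.37.

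No member of the immune lists passed. The 17 interferon-stimulated genes had a median of -0.12, which was 0.13 without levodopa animal 2. The 5 tested MHC class II genes had a median of -0.58 (0.02 without that animal), and RT1-Ba stood at 7.71, 19.9, 0.955, 0.422 and 0.531 CPM with levodopa and ran from 0.0624 to 11.3 CPM (median 0.949) at 7.5 mg/kg. RT1-Ba was at -1.52 over all animals, at -0.23 without levodopa animal 2 and at -2.58 without trapidil animal 6, and reads of related RT1 genes cannot be fully told apart. The 16 glucocorticoid-responsive genes had a median of -0.15 and the 4 blood genes of 0.09, which were -0.04 and 0.36 without levodopa animal 2. The 10 cortical genes had a median of -0.10 (-0.02 without that animal, over 11 genes) and included Slc30a3 (-1.56 ± 0.38, SE; edgeR adjusted p = 0.135), which reached at most 2.02 CPM.

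Set against 15 mg/kg, none of the 4 called genes passed. The log2 difference of 7.5 minus 15 mg/kg was -0.01 ± 0.11 for Ppp1r15a, 0.23 ± 0.25 for Dusp2, 0.05 ± 0.22 for Btg2 and -0.10 ± 0.15 for Dusp6 (SE), each with edgeR adjusted p = 0.999. Against levodopa the higher dose gave -0.95, -1.88, -1.39 and -0.81 for these 4 genes, from a comparison that shares the 5 levodopa animals.

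The doses differed at 4 other genes (0.0283% of those tested), all lower at 7.5 mg/kg. Per1, the clock gene named above, stood at 118 ± 9.68 CPM (SD, n = 10) with the lower dose and at 159 ± 18.0 CPM (SD, n = 10) with the higher, a log2 difference of -0.44 ± 0.07 (SE; edgeR adjusted p = 0.00512). Midn (-0.46; adjusted p = 0.00158), the insulin receptor substrate Irs2 (-0.58; adjusted p = 0.00512) and Zfp189 (-0.57; adjusted p = 0.0147), named after their values were seen, were the others. Against levodopa at 7.5 mg/kg they were at -0.20, -0.28 and -0.11 and did not pass.

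No immediate early gene passed between the doses. Fosb stood at 34.3 ± 7.57 CPM (SD, n = 10) with the lower dose and at 62.0 ± 16.1 CPM (SD, n = 10) with the higher, a log2 difference of -0.85 ± 0.17 (SE; edgeR adjusted p = 0.0728). The phosphatase Dusp5 was at -0.82 ± 0.20, and of the immediate early genes Nr4a1 was at -0.68 ± 0.17 and Egr2 at -0.77 ± 0.30 (adjusted p = 0.46, 0.46 and 0.999). Fos (-0.11 ± 0.36) and Arc (0.01 ± 0.28) were near 0 in the same contrast.

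How many genes passed depended on single animals. Ppp1r15a was called in each of the 15 fits that left out 1 animal (edgeR), with log2 fold changes from -1.10 to -0.83. Dusp2 lost its call without levodopa animal 3 (-1.42) or 5 (-1.34). Btg2 and Dusp6 kept theirs in 4 of these fits, those without levodopa animals 2 or 4 or trapidil animals 1 or 6, with values over all 15 from -1.62 to -1.13 for Btg2 and from -1.03 to -0.78 for Dusp6.

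Without animal 1 of the 7.5 mg/kg arm 55 genes passed lower and 15 higher, 0.495% of those tested, and 14 of the 42 immediate early genes were among them. Without levodopa animal 2 there were 9 lower and 0 higher (0.0634%), with 5 immediate early genes. Without levodopa animal 4 there were 27 lower and 6 higher (0.232%), with 13 immediate early genes. That animal had the lowest mean of the immediate early list in its arm (-0.48). Leaving it out therefore raises the levodopa mean of the list by construction and adds no separate evidence for those genes. Without both levodopa animal 2 and trapidil animal 1, chosen for their library values after the data were seen, there were 22 lower and 5 higher (0.19%), with 12 immediate early genes. In that fit Egr2 was at -2.20, Fos at -2.05, Arc at -1.70, Dusp1 at -1.67, Dusp5 at -1.47, Junb at -1.29, Jun at -1.26 and Nr4a1 at -1.05, all called, as were Ppp1r15a, Dusp2, Btg2 and Dusp6. Trapidil animal 1 held the highest 7.5 mg/kg value of each of these genes. Leaving it out, alone or with levodopa animal 2, therefore lowers their trapidil means by construction and adds no separate evidence for them. DESeq2 on all animals called 45 lower and 8 higher genes (0.375%), with 10 immediate early genes among them.

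**Figure D5:**
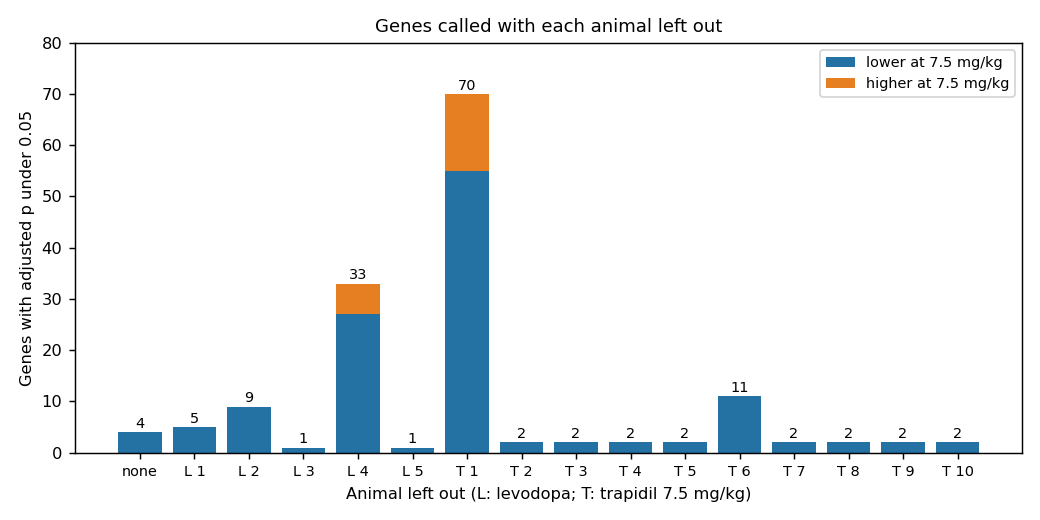
Bars (vertical axis, from 0) count the genes with edgeR adjusted p under 0.05, split into lower and higher at 7.5 mg/kg, with each animal of the levodopa (L) and trapidil (T) arms left out in turn. The count rises from 4 to 70 without T 1 and to 33 without L 4, and it lies between 1 and 11 for the other animals.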

How the data were processed

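Polyadenylated RNA from ipsilateral striatum was sequenced. The values were gene counts, deposited by the authors as 1 table of 25 libraries; per the submitters' processing notes, FastQC, STAR, HTSeq and the Rnor_6.0 build were used. Versions and the strand setting are not given in the sources used here, so overlapping and antisense genes, and families such as RT1 and Hbb, are uncertain. Library totals ran from 10838513 to 19274429 in the 15 libraries compared. Nothing in the labels used here says more of how the animals were separated than that they were numbered and randomised, so p-values measure the spread between these samples. No libraries agreed within sampling noise (smallest chi-square per degree of freedom 4.83).

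Of 28909 gene names, 9462 were at 0 in every library and 14142 passed filterByExpr. All 25 libraries were fitted with 1 factor for the 3 arms in edgeR 4.0.16 (TMM, quasi-likelihood test, two-sided, Benjamini-Hochberg, R 4.3.3). SE was the absolute log2 fold change over the square root of F. The list scores used log2(CPM + 2). DESeq2 1.42.0 and limma 3.58.1 were alternatives. The code was tested on simulated data. Library values were compared by exact permutation (scipy 1.17.1, 3003 arrangements).

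The comparison and its 30 gene lists were chosen with earlier results of these data known. Genes were named if called, among the 8 smallest p-values in either direction (mean 1 CPM or more), among up to 2 smallest in each list, or on a panel chosen for the pathway. RefSeq symbols or synonyms matched 18993 names. List genes not found in the table were not analysed here. Some genes are not reported here.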

Additional observations from a re-analysis of the deposited data

Results flagged for a closer look

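In 16 of 72 groups checked over 36 genes (22.2%) the highest or lowest animal stood apart by Dixon's 95% criterion, which chance alone gives in about 1 in 20 groups. The genes share animals, so the groups are not independent.

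Animal 1 of the 7.5 mg/kg arm accounted for 12 of these. It held the highest value for Dusp2 (10.1 CPM, nearest 6.75), Btg2 (31.7 CPM, nearest 12.03), Dusp6 (28.2 CPM, nearest 19.5) and Dusp5 (12.7 CPM, nearest 8.56). The same was true of Egr2 (86.6 CPM, nearest 38.7), Fos (63.2 CPM, nearest 20.7), Jun (114 CPM, nearest 70.5) and Junb (329 CPM, nearest 159). Arc (597 CPM, nearest 239), Nr4a1 (240.4 CPM, nearest 144) and Dusp1 (112 CPM, nearest 43.6) followed. For Tac1 it held the lowest value, 117 CPM, with the nearest animal at 159 CPM.

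Levodopa animal 2 accounted for the other 4. It held the highest value for Rrbp1 (134 CPM, nearest 83.2), Pdgfb (32.0 CPM, nearest 22.8) and Pdgfra (126 CPM, nearest 75.9), and the lowest for Pde10a (229 CPM, nearest 685).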

How the results depend on the processing

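Of the genes called, 4 were lower and 0 higher. The lower count was 7 with no filter on low counts, 1 with only the 2 arms in the fit, 2 with robust dispersions, 2 with limma-voom and 1 variance weight per arm, and 11 at an adjusted p under 0.10. DESeq2 called 45 lower and 8 higher, and limma-voom with quality weights 83 lower and 19 higher. The quality weights were lowest for levodopa animal 2 (0.172) and trapidil animal 1 (0.239). That fit is therefore not separate from the fits that leave these animals out. Leaving out 1 animal at a time gave 1 to 55 lower and 0 to 15 higher. Leaving out both levodopa animal 2 and trapidil animal 1, an alternative chosen after seeing the data, gave 22 lower and 5 higher. The cause of these changes was not tested.

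With the replicate number as a replicate block, 0 genes were called, against 816 lower and 635 higher at an unadjusted p under 0.05. The numbers were not shown to pair animals: over 5 same-numbered pairs the correlation of deviations ran from -0.31 to 0.21, and 0 of 5 matched best with their own number.

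Some genes near 0 changed sign. With quality weights Pdyn was at -0.20, Penk at -0.049, Drd1 at -0.0076, Pdgfra at 0.020, Pde10a at -0.087 and Per1 at 0.0085, and with arm weights Per1 was at 0.011. Without both doubted animals Pdyn was at -0.22, Penk at -0.049, Tac1 at -0.026, Drd1 at -0.071, Pdgfra at 0.031 and Pde10a at -0.15. Leaving out single animals, the ranges that crossed 0 were -0.12 to 0.31 for Pdyn, -0.080 to 0.13 for Penk, -0.072 to 0.14 for Tac1, -0.076 to 0.18 for Drd1, -0.14 to 0.17 for Pde10a, -0.19 to 0.056 for Pdgfra, -0.079 to 0.073 for Per1, -0.076 to 0.39 for Npas4, -0.082 to 0.39 for Hbb, -0.21 to 0.0022 for Slc1a3 and -3.25 to 1.40 for Ttr. The cause was not tested.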
